A study of Homo sapiens with 14 samples.

Results

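Genes that mark the maturation of pancreatic β cells were followed along the path from human embryonic stem cells to β-like cells. The 7 genes were given by name: MAFA, SIX2, SIX3, ESRRG, UCN3, G6PC2 and ENTPD3. Each was found once among the 60624 gene identifiers listed in every library, by matching Ensembl identifiers to gene symbols. The libraries were RNA sequencing libraries from cultures of MEL1, a human embryonic stem cell line that the study's methods name as MEL1 INS GFP/W, in which an INS allele carries GFP, so all groups share 1 genetic background. No sort of the cells is named. There were 14 libraries in 9 groups. Batch 1 of the labels held 1 library each of undifferentiated cells (hPSC), definitive endoderm (DE), pancreatic progenitors (PP2) and β-like cells made straight from stem cells (SC-β). Batch 2 held 2 libraries each of expandable pancreatic progenitors (ePPs) at passage 9 (ePP-P9) and passage 21 (ePP-P21), and of the β-like cells derived from them (ePP-β). The groups DMSO and I-BET151, with 2 libraries each in batch 3, were pancreatic progenitors given the solvent or 1 μM of the BET bromodomain inhibitor I-BET151 for 7 days. Per the study's methods, the ePPs were themselves grown on feeder cells in medium with this inhibitor, so both ePP groups carried it. Nothing states that the 2 libraries of a group came from separate cultures, so p-values measure the spread between these libraries, which may be technical.

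A newly formed β cell makes insulin but releases it at low glucose, and it gains its mature response later. In human islets this step goes with a set of genes of several kinds. The transcription factor MAFA activates the insulin gene, SIX2 and SIX3 are homeobox factors of maturing and adult human β cells, and the orphan nuclear receptor ESRRG drives genes of oxidative metabolism. UCN3 encodes urocortin 3, a peptide released together with insulin that acts on δ cells. G6PC2 encodes the islet catalytic subunit of glucose-6-phosphatase, which reverses the phosphorylation of glucose and so helps to set the glucose level at which insulin is released. ENTPD3 encodes an enzyme of the cell surface that breaks down extracellular ATP and is used as a surface marker of mature β cells.

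Values are in TPM, in which reads are divided by transcript length and then scaled to the library, so levels can be set side by side between genes. Read depth is unknown, and an exact 0 is reported as listed at 0, since all 37 mitochondrial genes were also listed at 0. The listed TPM summed to 908685 to 985497 per library, and 14982 to 17578 genes reached 1 TPM. Replicates of a group correlated at r = 0.945 to 0.987 across genes on the log2(TPM + 1) scale. INS, SLC30A8 and NKX2-2 were higher in all 3 libraries of β-like cells than in the other 11. PDX1 and NKX6-1, which progenitors also express, were present without setting β-like cells apart, and PDX1 was at 53.8 to 58.5 TPM in them against 124 to 134 TPM in the ePPs. IAPP, which encodes the peptide amylin, was at 0.463 and 0.538 TPM in ePP-β against 9.62 TPM in SC-β. Markers of other endocrine cells were also present in both groups. The α cell hormone gene GCG was at 14107 and 13360 TPM in ePP-β against 74281 TPM in SC-β, above INS (20657 TPM) in SC-β and in 1 of the 2 ePP-β libraries (10916 TPM), and the δ cell hormone gene SST was at 391 and 468 TPM in ePP-β against 2757 TPM in SC-β.

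In the β-like cells, 5 of the 7 maturation genes reached 1 TPM in SC-β and 5 did in each ePP-β library, but these were not the same genes. MAFA reached it in ePP-β and not in SC-β, and SIX2 reached it in SC-β and not in ePP-β. UCN3, G6PC2, ESRRG and ENTPD3 reached it in both. SIX3 stayed under 1 TPM in all 14 libraries. Together the 7 genes summed to 27.5 and 26.2 TPM in ePP-β and to 175 TPM in SC-β, where G6PC2 alone made up 153 TPM. In the ePP libraries they summed to 3.55 to 6.29 TPM, and 1 to 3 of the 7 reached 1 TPM. In bulk RNA, fewer cells of a type and less RNA per cell cannot be told apart.

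**Figure D1:**
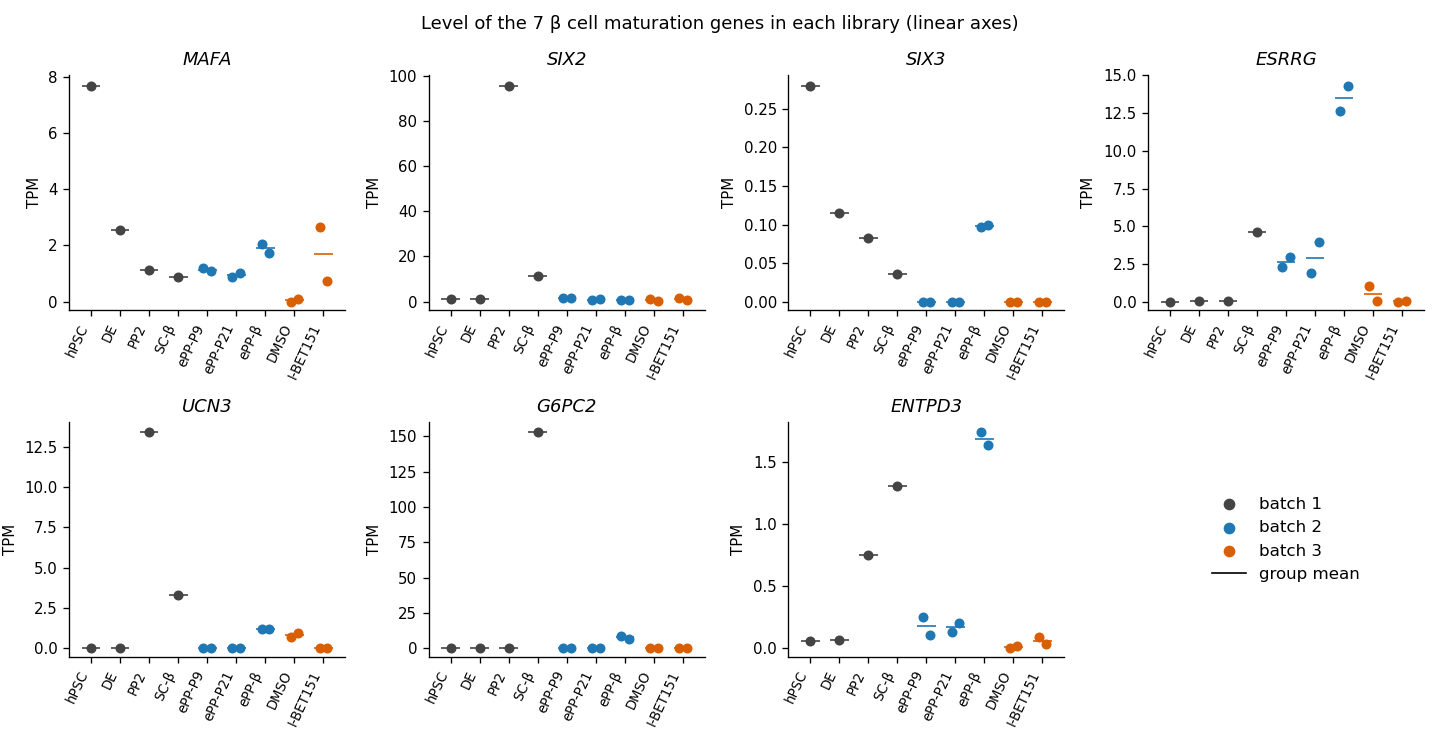
Level of each maturation gene in TPM (linear vertical axes that differ between panels) in the 9 groups on the horizontal axis. Points are libraries coloured by batch and lines are group means. G6PC2 stands at 153 TPM in SC-β against 9.04 and 6.59 TPM in ePP-β, SIX2 stands at 95.6 TPM in PP2, and ESRRG is highest in ePP-β at 12.6 and 14.3 TPM.

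MAFA (ENSG00000182759, GRCh38 chromosome 8, 143419182 to 143430732, minus strand) was low in every group, and its level was not highest in β-like cells. It was at 7.68 TPM in hPSC, 2.53 TPM in DE, 1.12 TPM in PP2 and 0.864 TPM in SC-β. It was at 1.18 and 1.10 TPM in ePP-P9, at 0.890 and 1.03 TPM in ePP-P21, and at 2.05 and 1.75 TPM in ePP-β. The ePP-β libraries lay above all 4 ePP libraries and above SC-β, and below hPSC and DE. In its own library MAFA ranked 12609th and 13082nd among 19895 protein-coding genes in ePP-β, and 9110th in hPSC. The difference of ePP-β from ePP was 0.50 on the log2 scale with SE 0.15 and adjusted p = 0.0273 (limma), short of the fold limit, and it became -0.02 with adjusted p = 0.940 when the libraries were quantile normalized. In the I-BET151 experiment MAFA was listed at 0 and was at 0.0903 TPM in DMSO, and it was at 2.64 and 0.722 TPM in I-BET151. These groups did not overlap, though the share of all genes that do so was not counted, and MAFA missed the filter for testing. Without the filter its log2 difference was 1.26 with adjusted p = 0.477 (limma), and in a joint fit of all 10 replicated libraries, which joins batches 2 and 3, the same difference had adjusted p = 0.0415 and passed both thresholds.

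Of the 6 tested genes of the MAF family, MAFA included, 2 rose past both thresholds between ePP and ePP-β, and 0 fell. Over all 18076 tested genes, 17.9% were called higher and 9.86% lower. These shares also stand beside the family counts for this step given below. The large MAF factor MAF was at 20.8 and 20.7 TPM in ePP-β, 39.1 TPM in SC-β and 6.16 to 11.4 TPM in the ePPs, a log2 change of 1.17. The small MAF factor MAFF, which binds the same kind of DNA element without an activation domain, was at 10.8 and 15.7 TPM in ePP-β, 6.30 TPM in SC-β and 2.12 to 3.55 TPM in the ePPs, a log2 change of 1.80. Both stood above MAFA in both kinds of β-like cells.

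SIX2 (ENSG00000170577, GRCh38 chromosome 2, 45005182 to 45009452, minus strand) was highest in PP2, not in β-like cells. It reached 95.6 TPM in PP2 and 11.5 TPM in SC-β, against 1.21 TPM in hPSC and 1.03 TPM in DE. It was at 1.502 and 1.56 TPM in ePP-P9, at 0.638 and 1.12 TPM in ePP-P21, and at 0.751 and 0.576 TPM in ePP-β. PP2 and SC-β thus stood apart from the other 12 libraries, in which SIX2 stayed between 0.278 and 1.56 TPM. Among protein-coding genes SIX2 ranked 1886th in PP2, 7813th in SC-β, and 13863rd and 14330th in ePP-β. The SC-β level was 17.4 times the ePP-β mean of 0.663 ± 0.124 TPM (SD, n = 2), and 15.4 to 20.1 times the single ePP-β libraries. Between ePP and ePP-β the log2 difference was -0.39 with SE 0.17 and adjusted p = 0.0957 (limma). It became -0.52 with adjusted p = 0.0342 with median centring and -0.99 with adjusted p = 0.00289 with quantile normalization, both inside the fold limit.

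The genes most like SIX2 across the 14 libraries were MAB21L2 (Pearson r of log2 values 0.978), CCDC154 and PERCC1 (both 0.974). MAB21L2 was at 62.5 TPM in PP2, at 12.99 TPM in SC-β, and at 0.115 and 0.228 TPM in ePP-β. Markers of mesenchyme, the connective tissue lineage, were also high in PP2 and SC-β. The 4 listed markers (COL1A1, COL3A1, PDGFRB and THY1) summed to 1135 TPM in PP2 and 2167 TPM in SC-β, all 4 above 1 TPM, against 40.0 and 30.7 TPM in ePP-β, where THY1 was at 0.296 and 0.398 TPM. In hPSC they summed to 541 TPM, mainly THY1 (342 TPM) and COL1A1 (195 TPM), while SIX2 was at 1.21 TPM. COL3A1 and PDGFRB were at 0.0111 and 3.30 TPM there. The part of mesenchymal cells in the SIX2 levels was not tested.

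SIX3 (ENSG00000138083, GRCh38 chromosome 2, 44941702 to 44946071, plus strand) lies 59110 bases from SIX2. It was at 0.280 TPM in hPSC, 0.115 TPM in DE, 0.0824 TPM in PP2 and 0.0358 TPM in SC-β, and at 0.0974 and 0.0988 TPM in ePP-β. It was listed at 0 in the 4 ePP libraries and in the 4 libraries of the I-BET151 experiment. SIX3 therefore missed the filter in every comparison. Without the filter its log2 difference of ePP-β from ePP was 0.13 with adjusted p = 0.00112 (limma), at levels under 0.1 TPM. Among SIX2 to SIX6, SIX5 took the top place in all of the PP2, SC-β and ePP-β libraries, and SIX6 stayed under 1 TPM throughout. For the step to ePP-β, 3 of these 5 genes were tested, of which 0 rose and SIX5 fell by 1.17 on the log2 scale.

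ESRRG (ENSG00000196482, GRCh38 chromosome 1, 216503246 to 217137755, minus strand) had its highest level in ePP-β. It was at 12.6 and 14.3 TPM there, at 2.29 and 2.94 TPM in ePP-P9, at 1.89 and 3.93 TPM in ePP-P21 and at 4.62 TPM in SC-β. It was under 0.1 TPM in hPSC, DE and PP2. The order was thus ePP-β, SC-β and then the ePPs, with ePP-P9 and ePP-P21 overlapping. Against the ePPs it rose by 1.97 on the log2 scale with SE 0.25 and adjusted p = 0.00106 (limma). The ePP mean was 2.76 ± 0.891 TPM (SD, n = 4) and the ePP-β mean 13.5 ± 1.21 TPM (SD, n = 2). This was the maturation gene that reached 1 TPM in all 6 libraries of that fit, so its test did not depend on passing the filter through ePP-β. The ePP-β mean was 2.92 times the SC-β level. In the I-BET151 experiment its values were 1.03 and 0.0161 TPM in DMSO against 0.00883 and 0.0283 TPM in I-BET151, and these groups overlapped.

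Within its family ESRRG made up 23.8% and 25.97% of the summed TPM in ePP-β and 3.40% in SC-β. ESRRA, the widely expressed relative, was at 37.9 and 39.5 TPM in ePP-β against 127 TPM in SC-β. Of the 3 tested genes of the group, which also holds the PGC-1 coactivators that work with these receptors, ESRRG was the 1 called from ePP to ePP-β. The genes most like ESRRG were AHI1 (r = 0.943), EDN3 (0.943) and IFIT5 (0.941). EDN3, which encodes the peptide endothelin 3, was at 7.11 and 9.18 TPM in ePP-β, at 1.29 TPM in SC-β and at 0.945 to 1.57 TPM in the ePPs.

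UCN3 (ENSG00000178473, GRCh38 chromosome 10, 5364966 to 5374692, plus strand) was listed at 0 in 8 of the 14 libraries. The other libraries had 13.4 TPM in PP2, 3.34 TPM in SC-β, 1.19 and 1.24 TPM in the ePP-β libraries, and 0.713 and 0.985 TPM in DMSO. It was listed at 0 in hPSC, DE, all 4 ePP libraries and both I-BET151 libraries. PP2 progenitors thus stood above both β-like groups, and ePP-β stood above its own progenitors and below SC-β. The log2 difference from ePP to ePP-β was 1.15 with SE 0.12 and adjusted p = 0.00051 (limma), a call that was lost under quantile normalization (0.61, adjusted p = 0.00786). UCN3 passed the filter for this test only through ePP-β, where it was higher, so the result is a description. The SC-β level was 2.76 times the ePP-β mean of 1.21 ± 0.0337 TPM (SD, n = 2). DMSO and I-BET151 did not overlap, though the share of all genes that do so was not counted, and UCN3 was below the filter. Without the filter the log2 difference was -0.88 with adjusted p = 0.244 (limma), and in the joint fit of 10 libraries the same difference had adjusted p = 0.00701, inside the fold limit.

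The genes most like UCN3 were OSR1 (r = 0.980), ELF5 (0.973) and CRB2 (0.966). OSR1, a transcription factor of intermediate mesoderm, was at 19.05 TPM in PP2, 3.34 TPM in SC-β and 1.24 and 0.661 TPM in ePP-β. The mesenchyme markers given above were also highest in PP2 and SC-β, the groups with the most UCN3. They summed to 1135 TPM in PP2, where UCN3 was at 13.4 TPM, and to 2167 TPM in SC-β, where it was at 3.34 TPM. In hPSC, where UCN3 was listed at 0, they summed to 541 TPM, mainly THY1 (342 TPM) and COL1A1 (195 TPM). In DMSO they summed to 164 and 64.1 TPM where UCN3 was at 0.713 and 0.985 TPM, and in I-BET151, where it was listed at 0, to 73.0 and 31.3 TPM. Their part in the UCN3 levels was not tested.

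The relatives of urocortin 3 showed other patterns. CRH, which encodes corticotropin-releasing hormone, was at 86.7 and 72.5 TPM in ePP-β against 1043 TPM in SC-β, and was listed at 0 in PP2. UCN, which encodes urocortin 1, was at 320 TPM in SC-β, whereas the ePP-β libraries had 1.23 and 3.58 TPM and overlapped the ePPs (2.30 to 3.76 TPM). CRHR2, the receptor through which urocortin 3 acts, was at 2.22 and 2.99 TPM in ePP-β against 0.847 TPM in SC-β. Of the 7 listed genes, 5 were tested between ePP and ePP-β, of which CRH, CRHR2 and UCN3 rose and 0 fell. Each of the genes that rose was under 1 TPM in every ePP library and passed the filter only through ePP-β, so this count is a description.

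G6PC2 (ENSG00000152254, GRCh38 chromosome 2, 168901291 to 168910000, plus strand) separated the β-like groups from all others. It was at 153 TPM in SC-β and at 9.04 and 6.59 TPM in ePP-β. In the other 11 libraries it was listed at 0, except for 0.0122 TPM in I-BET151 replicate 1. In SC-β it ranked 924th among protein-coding genes, above 95.4% of them, and in ePP-β it ranked 9122nd and 10316th. The SC-β level was 19.6 times the ePP-β mean of 7.82 ± 1.74 TPM (SD, n = 2), and 16.9 to 23.2 times the single libraries. The log2 difference of ePP-β from ePP was 3.13 with SE 0.17 and adjusted p = 4.19e-05 (limma). G6PC2 passed the filter for this test only through ePP-β, where it was high, so the result is a description.

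G6PC2 lies wholly within the span of SPC25, a kinetochore gene on the opposite strand, with 8710 shared bases. The use of strand was not stated, so reads from the shared part cannot be told apart without it. SPC25 was at 19.1 to 23.5 TPM in the ePPs, where G6PC2 was listed at 0, and at 8.60 and 10.0 TPM in ePP-β and 3.76 TPM in SC-β. The levels of this pair thus ran in opposite directions.

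The genes most like G6PC2 were LGI3 (r = 0.9997), SLC45A2 (0.999) and CPLX2 (0.997). G6PC2 was listed at 0 in 10 of the 14 libraries and reached 1 TPM in 3, so these r values rest mainly on the β-like cells. By Spearman rho the most similar genes were instead GPR148, SLC17A6 and CIBAR2. CPLX2, which encodes complexin 2, a protein of regulated exocytosis, was at 23.9 TPM in SC-β, at 4.09 and 3.78 TPM in ePP-β, with no more than 0.0956 TPM elsewhere. The related catalytic subunit gene G6PC3, which most tissues use, was at 38.2 to 135 TPM in the 14 libraries and did not pass the test from ePP to ePP-β (log2 difference 0.27, adjusted p = 0.160, limma). G6PC2 made up 44.4% of the summed TPM of the 4 genes of this system in SC-β and 4.87% and 4.71% in ePP-β. G6PC1, the liver subunit, had 1.35 and 1.43 TPM in ePP-β. It was called higher there than in ePP with a log2 difference of 1.23 (adjusted p = 0.000437, limma). G6PC1 was under 1 TPM in every ePP library and passed the filter only through ePP-β, so this call is a description.

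The 250 bases before the annotated start are shown for 3 of the 7 genes (RefSeq, GRCh38.p14), those with exactly 1 such window. Each reads 5′ to 3′ on the strand of its gene. Capitals mark matches, on either strand, to the letters CAGATG (an E-box read by factors such as NEUROD1), TGCTGA (part of the MAF recognition element), AAGGTCA (the site of estrogen-related receptors) and TATAAA (the TATA box).
G6PC2, chr2:168901041-168901290, plus strand: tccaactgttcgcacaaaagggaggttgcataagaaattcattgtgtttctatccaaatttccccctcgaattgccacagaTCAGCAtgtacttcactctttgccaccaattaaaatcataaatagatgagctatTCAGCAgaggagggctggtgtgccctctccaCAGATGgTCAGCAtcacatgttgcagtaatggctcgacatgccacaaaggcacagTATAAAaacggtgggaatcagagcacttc
SIX2, chr2:45009453-45009702, minus strand: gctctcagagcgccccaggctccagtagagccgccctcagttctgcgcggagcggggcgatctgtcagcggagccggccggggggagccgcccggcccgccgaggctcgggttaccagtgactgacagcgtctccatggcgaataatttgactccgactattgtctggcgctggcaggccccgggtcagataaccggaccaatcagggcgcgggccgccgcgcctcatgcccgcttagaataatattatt
ENTPD3, chr3:40386934-40387183, plus strand: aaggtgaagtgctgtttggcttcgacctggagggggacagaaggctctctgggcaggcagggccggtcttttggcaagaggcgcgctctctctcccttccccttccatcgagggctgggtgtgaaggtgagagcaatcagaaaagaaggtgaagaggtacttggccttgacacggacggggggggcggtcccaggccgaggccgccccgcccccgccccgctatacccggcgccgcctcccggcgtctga
The G6PC2 window held 5 matches, an E-box at -84 to -79 from the start, the MAF letters at -169 to -164, -115 to -110 and -77 to -72, all read on the reverse strand as TCAGCA, and TATAAA at -29 to -24. The SIX2 and ENTPD3 windows held 0 matches. ESRRG had 8 windows for its several starts, of which 2 held the E-box, 1 the MAF letters and 1 the receptor site. Of all 35116 windows of this length, 12.2% held CAGATG, 14.02% TGCTGA, 3.44% AAGGTCA and 10.7% TATAAA. The matches describe letters and not binding.

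ENTPD3 (ENSG00000168032, GRCh38 chromosome 3, 40387184 to 40428744, plus strand) was the maturation gene with the smallest ratio in TPM between the 2 kinds of β-like cells. It was at 1.74 and 1.64 TPM in ePP-β, at 1.31 TPM in SC-β and at 0.754 TPM in PP2. In the ePPs it was at 0.252, 0.106, 0.136 and 0.207 TPM, and in the remaining libraries it did not exceed 0.0961 TPM. From ePP to ePP-β the log2 difference was 1.20 with SE 0.14 and adjusted p = 0.000677 (limma), and the call was lost under quantile normalization (0.59, adjusted p = 0.0199). ENTPD3 passed the filter for this test only through ePP-β, where it was higher, so the result is a description. Its span lies wholly within the antisense gene ENTPD3-AS1, which was at 1.44 and 1.88 TPM in ePP-β, at 1.28 TPM in SC-β and at 0.446 to 1.07 TPM in the ePPs. Without the use of strand the reads of ENTPD3 and ENTPD3-AS1 cannot be told apart.

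Among the genes most like ENTPD3 were THSD7A (r = 0.986), RGS7 (0.983) and FSTL5 (0.982). FSTL5 was at 49.7 and 54.3 TPM in ePP-β, at 58.7 TPM in SC-β and at 13.8 TPM in PP2. The ENTPD family was carried by other members in all groups. ENTPD4 and ENTPD6, enzymes of the secretory pathway, were at 51.7 and 53.5 TPM and at 35.9 and 39.1 TPM in ePP-β, and ENTPD3 made up 1.41% and 1.25% of the summed TPM of the 8 genes there and 0.952% in SC-β. Of the 5 tested ENTPD genes, ENTPD3 rose past both thresholds, 0 fell, and 4 were not called.

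**Figure D2:**
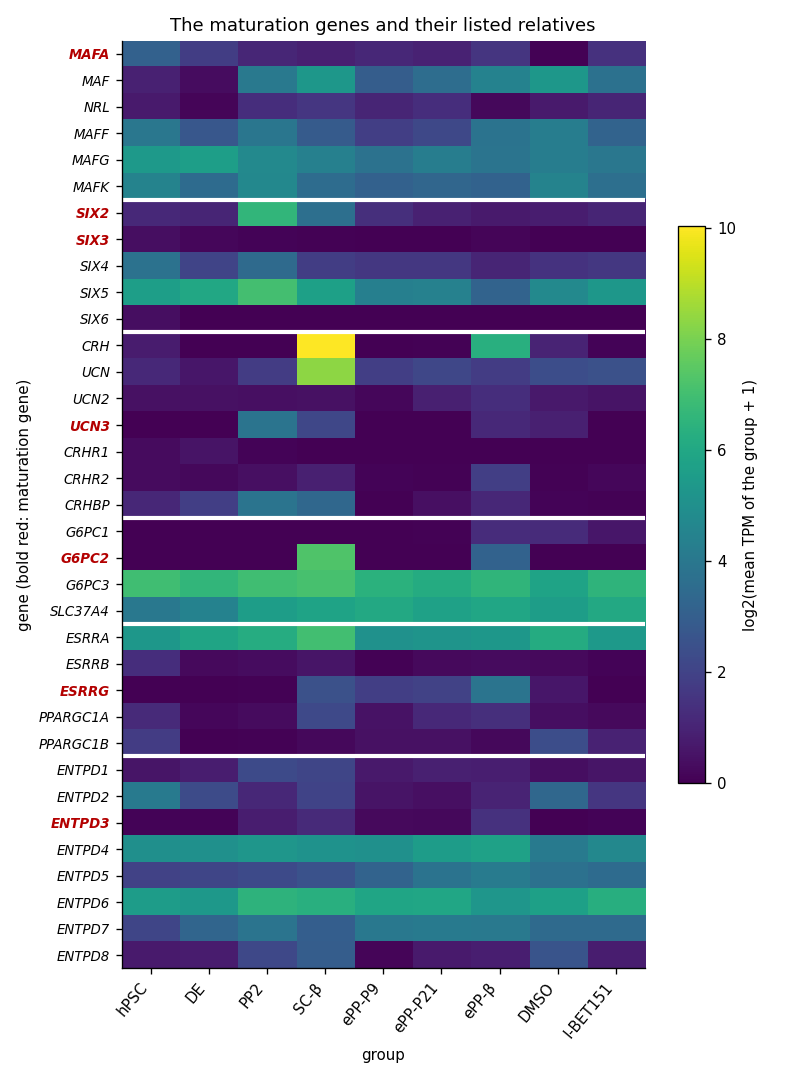
Mean level of the maturation genes (bold red) and their listed relatives on the log2(TPM + 1) scale (colour) in the 9 groups (columns), with white lines between families. CRH in SC-β (1043 TPM) is bright, whereas SIX3 is dark in every group.

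The first comparison asks which of these genes change when ePPs are turned into β-like cells. Of the 7 genes, 6 passed the filter of 1 TPM in 2 libraries and were tested. ESRRG, UCN3, G6PC2 and ENTPD3 were called higher in ePP-β and 0 were called lower, where 17.9% of 18076 tested genes were called higher and 9.86% lower (limma, adjusted p under 0.05 and log2 fold change beyond 1 in size). UCN3, G6PC2 and ENTPD3 passed the filter only through ePP-β, the group in which they were high, so this count is a description. When either ePP-β library was left out these 3 genes were no longer tested, and ESRRG kept its call. MAFA and SIX2 were tested and not called.

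Other genes of the β cell were taken from 2 lists on the same scale. Of 15 listed transcription factors of β cell identity, 10 were called higher and PDX1 lower, with a median log2 fold change of 2.63. Of 22 listed genes of hormone processing, glucose sensing and secretion, 21 were tested, 20 were called higher and 0 lower, with a median of 6.27. In both lists some genes passed the filter only through ePP-β, where they were high. NEUROD1, PAX6, ISL1, INS, PCSK1, PCSK2 and ABCC8, for example, were under 1 TPM in every ePP library. These counts and medians are therefore descriptions. The median of the 6 tested maturation genes was 1.17, and that of all tested genes was -0.03. The latter moved to -0.17 with median centring and to -0.19 with quantile normalization. Adding 1 to TPM shrinks the changes of low genes, so these medians of lists at unlike levels are not like for like. With a pseudocount of 0.01 the differences were 9.59 for G6PC2, 6.93 for UCN3, 3.27 for ENTPD3, 2.33 for ESRRG, 0.85 for MAFA and -0.78 for SIX2.

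**Figure D3:**
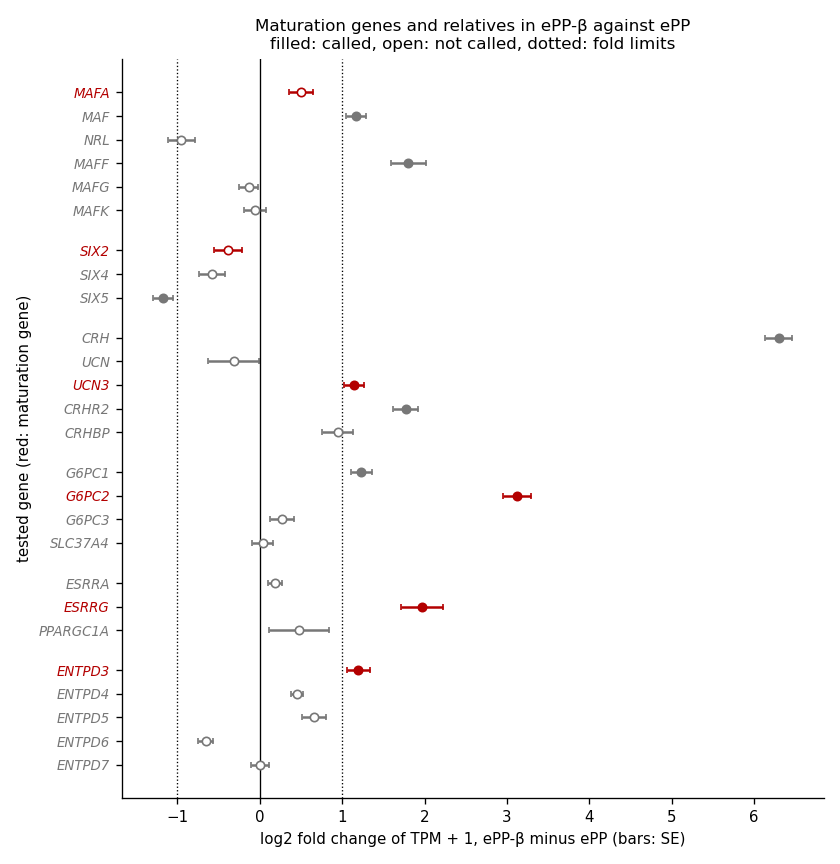
Log2 fold change of TPM + 1 from ePP to ePP-β (horizontal axis, bars are SE) for the tested maturation genes (red) and relatives (grey). Filled points passed both thresholds and open points did not, and dotted lines mark a change of 1 in size. ESRRG (1.97) and G6PC2 (3.13) lie right of the limit and MAFA (0.50) inside it.

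The second comparison sets ePP-β beside SC-β, the β-like cells made without expansion. SC-β had 1 library in another batch, so no test was made and batch and group cannot be told apart. On the TPM scale SIX2, UCN3 and G6PC2 were lower in both ePP-β libraries than in SC-β, and MAFA, SIX3, ESRRG and ENTPD3 were higher in both. The share of all genes with both ePP-β libraries on the same side of SC-β was not counted, so these sides are only a description. By more than 1 log2 unit in both libraries, G6PC2 and SIX2 were below SC-β, as were 14.7% of 19533 genes, and ESRRG was above it, as were 14.5%. MAFA, UCN3 and ENTPD3 were within this limit, and SIX3 was under 1 TPM in all 3 libraries. UCN3 lay close to it, and was below SC-β by more than 1 log2 unit in both libraries with a pseudocount of 0.1 (-1.39), a pseudocount of 0.01 (-1.46), median centring (-1.13) or quantile normalization (-1.07). MAFA was above SC-β by that much in both with a pseudocount of 0.01 (1.12). The log2 differences of ePP-β from SC-β were -4.14 for G6PC2, -2.92 for SIX2, -0.97 for UCN3, 0.22 for ENTPD3, 0.63 for MAFA and 1.36 for ESRRG.

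Cultures can differ in their share of endocrine cells, so each gene was also taken as a ratio to an endocrine gene of the same library. CHGA, which encodes the granule protein chromogranin A, was at 16017 and 14843 TPM in ePP-β against 16156 TPM in SC-β. Per TPM of CHGA, SC-β held 18.8 times the ePP-β level of G6PC2, 16.7 times that of SIX2, 2.63 times that of UCN3 and 0.326 times that of ESRRG. INS, at 10916 and 17374 TPM in ePP-β and 20657 TPM in SC-β, gave 12.3, 11.0, 1.80 and 0.226 times in the same order. The line carries GFP in an INS allele, as given above. Per TPM of NEUROD1, an endocrine transcription factor at 334 and 317 TPM in ePP-β and 182 TPM in SC-β, the ratios were 35.0, 31.2, 4.91 and 0.610. ENTPD3 was the gene whose direction turned, from 0.776 in TPM to 1.38 per TPM of NEUROD1.

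**Figure D4:**
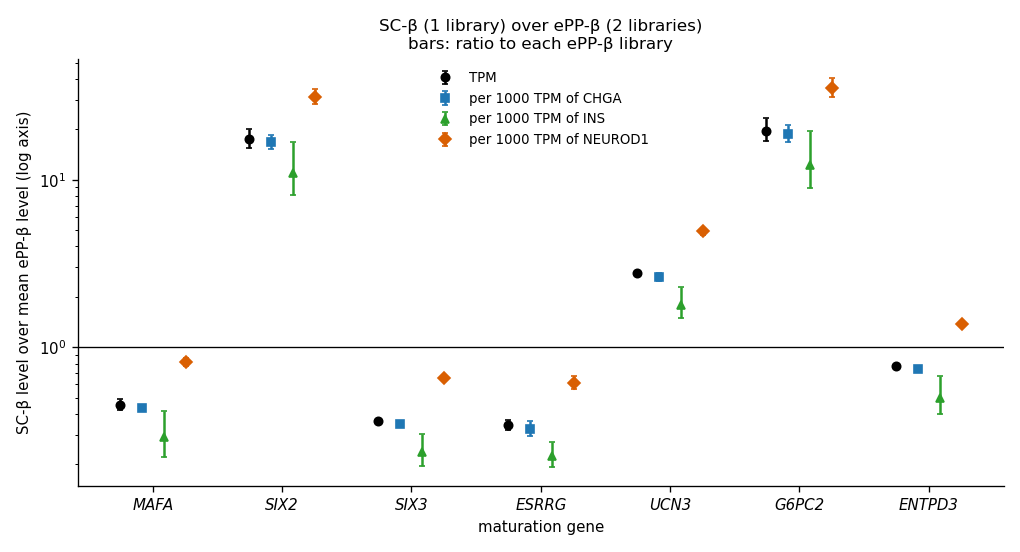
Level in SC-β over the mean level in ePP-β (vertical log axis) for the 7 maturation genes, in TPM and per 1000 TPM of CHGA, INS or NEUROD1. Bars span the ratios to the single ePP-β libraries. SIX2 and G6PC2 stand above 1 on every scale, at 17.4 and 19.6 in TPM, and MAFA, SIX3 and ESRRG stand below 1.

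Other β cell genes were set against the limit of 1 log2 unit used above. Of 19533 genes, 14.7% were below SC-β by it in both ePP-β libraries and 14.5% were above. Of the 15 identity transcription factors, 0 were below SC-β by this limit in both ePP-β libraries and 4 were above it. Of the 22 secretory genes, 4 were below and 6 were above. IAPP, which like G6PC2 encodes a product of mature β cells, was at 0.501 ± 0.0534 TPM (SD, n = 2) in ePP-β against 9.62 TPM in SC-β. SLC30A8, the zinc transporter of insulin granules, was at 495 ± 37.9 TPM (SD, n = 2) against 72.1 TPM.

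The third comparison follows directed differentiation from PP2 to SC-β, with 1 library at each stage and no replicate check. G6PC2 and ESRRG were higher in SC-β by more than 1 log2 unit, as were 12.7% of 18894 genes. UCN3 and SIX2 were lower by that much, as were 22.1%. G6PC2 went from listed at 0 to 153 TPM and ESRRG from 0.0304 to 4.62 TPM, whereas SIX2 went from 95.6 to 11.5 TPM and UCN3 from 13.4 to 3.34 TPM. MAFA (1.12 and 0.864 TPM) and ENTPD3 (0.754 and 1.31 TPM) differed by less. ePPs and PP2 are both pancreatic progenitors, yet SIX2 and UCN3, the maturation genes highest in PP2, were at most 1.56 TPM and listed at 0 in the ePPs. Batch and group cannot be told apart there either.

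The fourth comparison asks whether passage changes these genes in ePPs. MAFA, SIX2 and ESRRG could be tested, and 0 of the 3 were called, where 1.13% of 15822 genes were called in either direction (limma, with 3641 genes at an unadjusted p under 0.05). The log2 differences of ePP-P21 from ePP-P9 were -0.13 for MAFA (adjusted p = 0.791), -0.44 for SIX2 (0.370) and 0.07 for ESRRG (0.923). SIX2 was lower in both ePP-P21 libraries than in both ePP-P9 libraries, as was MAFA, though the share of all genes that do so was not counted. UCN3, G6PC2 and SIX3 were listed at 0 at both passages, and ENTPD3 stayed under 1 TPM.

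The fifth comparison concerns I-BET151 against DMSO. SIX2 was the 1 maturation gene that passed the filter, at 1.22 and 0.278 TPM in DMSO against 1.52 and 0.581 TPM in I-BET151. It differed by 0.24 on the log2 scale with SE 0.42 and adjusted p = 0.836 (limma), where 0.21% of 16687 genes were called. The groups overlapped for SIX2. For MAFA and UCN3, described above, they did not, and both genes were below the filter. The share of all genes whose groups did not overlap was not counted, so this is only a description. G6PC2, SIX3, ESRRG and ENTPD3 were at or under 0.0961 TPM in both I-BET151 libraries.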

How the data were processed

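RNA was sequenced by the authors on an Illumina HiSeq instrument after column isolation and NEBNext Ultra library preparation. Reads were aligned to GRCh38 with HISAT2 2.1.0 and quantified with StringTie. The deposited values are TPM per Ensembl gene, used as they stand. Neither the gene annotation's release nor the strand setting is given in the sources used here. Read depth cannot be recovered from TPM, so no counting interval is given and precision rests on 2 libraries per replicated group. The count model of the study cannot take TPM.

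Of 60624 identifiers, 60370 matched GENCODE release 44, which gave symbols and positions. Genes with at least 1 TPM in 2 libraries of a fit were tested on log2(TPM + 1) with limma 3.58.1 in R 4.3.3, within 1 batch, two-sided, and the ePP level was the mean of both passages. A fold change on this scale understates changes of low genes. Calls required a Benjamini-Hochberg adjusted p under 0.05 over all tested genes and a log2 fold change beyond 1 in size, the study's thresholds. ± denotes SD.

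The 7 genes, their families, the β cell lists and the cell type markers were chosen with earlier results of these data known, as were the tests and alternatives. For each gene reaching 1 TPM in 2 libraries, the 3 protein-coding genes with the highest Pearson r over the 14 libraries were named. These r values are descriptions over libraries that share a cell line and batches. Promoter windows came from RefSeq and were read for 4 of the 7 genes (G6PC2, SIX2, ESRRG and ENTPD3). MAFA, on chromosome 8, was left out of this search, and UCN3 and SIX3 had no window. Of the listed genes, 3 are not reported here and were left out of the lists and their counts. The code was tested on simulated data. Other settings tried were a pseudocount of 0.1 or 0.01, a filter of 5 TPM or none, median centring, quantile normalization, a replicate block, each library left out, adjusted p alone and a joint fit of 10 libraries. The ratio to NEUROD1 was chosen after seeing the data.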

Additional observations from a re-analysis of the deposited data

Results flagged for a closer look

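MAFA and UCN3 differed in opposite directions, in TPM, on the 2 routes to β-like cells. MAFA was lower in SC-β than in PP2 by 0.261 TPM (a difference of -0.261 TPM), from 1.12 to 0.864 TPM, and both ePP-β libraries lay above all ePP libraries, with a mean difference of 0.849 TPM. For MAFA this depends on the scaling, since on the log2 scale SC-β minus PP2 was -0.19 but 0.15 with median centring, and ePP-β minus ePP was 0.50 but -0.016 with quantile normalization. UCN3 differed by -10.1 TPM between SC-β and PP2, from 13.4 to 3.34 TPM, and by 1.21 TPM between ePP-β and the ePPs, where it was listed at 0. The difference between the routes was not tested, because PP2 and SC-β had 1 library each and came from another batch than the ePP libraries, so route and batch cannot be told apart.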

How the results depend on the processing

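TPM leaves read depth unknown, and groups held 1 or 2 libraries, so members under 1 TPM could not be judged. Of the maturation genes, G6PC2 and ESRRG kept their calls from ePP to ePP-β under every alternative in which they were tested. UCN3 and ENTPD3 lost theirs under quantile normalization, and MAFA had a log2 difference of -0.016 there. With adjusted p alone MAFA was called higher. For ESRRG, the difference of ePP-P21 from ePP-P9 became -0.14 with median centring and -0.19 with quantile normalization, and ranged from -0.32 to 0.45 with each library left out. SIX2 in I-BET151 against DMSO was -0.16 without DMSO replicate 2 and 0.58 without I-BET151 replicate 2, and missed the filter without either replicate 1. Median centring removes the differences of library medians, which were 0.16 for ePP-β minus SC-β and -0.34 for SC-β minus PP2. With it SIX3 differed by -0.074 between ePP-β and SC-β. Between SC-β and PP2, MAFA differed by 0.15 and SIX3 by 0.28, and 5 rather than 3 of the 7 genes stood above PP2. The SC-β to ePP-β ratio of ENTPD3 became 1.38 per TPM of NEUROD1. By Spearman rho, 2 of the 18 most similar genes were shared with the 18 named. The causes were not tested.

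Counts over all genes moved more. From ePP to ePP-β, 3237 genes were called higher and 1783 lower. This became 2058 higher with a filter of 5 TPM, 2866 lower with quantile normalization, 5276 higher and 5105 lower with adjusted p alone, and 1623 to 3273 higher and 1656 to 2001 lower with each library left out, the lowest counts of higher genes coming without ePP-β replicate 1 (1765) or replicate 2 (1623). For ePP-P21 against ePP-P9, 169 were higher and 9 lower. With limma this became 0 and 0 with no filter (4677 genes at an unadjusted p under 0.05) or with median centring (4176), 10 and 3 with quantile normalization, 0 and 1 in the joint fit (1511), 288 and 21 with adjusted p alone, 4 lower with 5 TPM, and 0 to 453 higher and 0 to 25 lower with each library left out (0 higher without ePP-P21 replicate 1 or 2, with 3664 and 2696 genes at an unadjusted p under 0.05). For I-BET151 against DMSO, 1 was higher and 34 lower. With limma this became 0 and 0 with a pseudocount of 0.1 (2462 at an unadjusted p under 0.05) or 0.01 (2417) or with no filter (4535), 119 lower with median centring, 3 and 135 with quantile normalization, 518 and 1155 in the joint fit, and 7 to 283 higher and 100 to 751 lower with each library left out.

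The replicate numbers of the titles were checked for pairing by correlating, across genes, the replicate 2 minus replicate 1 differences. This gave r = -0.0040 to 0.0439 among the ePP-P9, ePP-P21 and ePP-β groups and 0.675 between DMSO and I-BET151, where only 2 pairs exist, so the numbers were not taken to pair libraries. With a replicate block, 64 genes were higher and 2 lower in ePP-P21, 828 higher and 1466 lower in I-BET151, and 3233 higher and 1799 lower in ePP-β. The block changed no call of a maturation gene, and SIX2 in I-BET151 against DMSO had adjusted p = 0.500.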

Other observations

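Other genes of the β cell lists also differed between the 2 kinds of β-like cells, given here as values with no test. PCSK1, a convertase that cuts proinsulin, was at 169 ± 15.4 TPM (SD, n = 2) in ePP-β and at 11.1 TPM in SC-β, whereas its partner PCSK2 was at 142 ± 14.2 TPM and 178 TPM. SLC2A2, a glucose transporter, was at 6.97 ± 1.12 TPM in ePP-β and at 1.20 TPM in SC-β. KCNJ11, the pore of the ATP-sensitive potassium channel, was at 40.2 ± 2.58 TPM in ePP-β and at 140.1 TPM in SC-β, whereas ABCC8, which encodes the other subunit of that channel, was at 87.4 ± 19.5 TPM and 99.3 TPM. Among the transcription factors, GLIS3 was at 10.6 ± 0.216 TPM in ePP-β and at 0.452 TPM in SC-β. The 5 markers of enterochromaffin-like cells summed to 652 and 733 TPM in ePP-β and to 362 TPM in SC-β. SC-β had 1 library in another batch, so batch and group cannot be told apart.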
